A study of Homo sapiens with 6 samples.

Results

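Genes of selectin binding, cadherin contacts and cell junctions were followed in K562, a human line of chronic myeloid leukemia in blast crisis, after knockdown of NPM. They are 10 of the 20802 genes measured: SELPLG, ICAM1, ICAM3, PECAM1, CDH12, CDH1, CDH2, EPCAM, ESAM and F11R. The set was put together around SELPLG, CDH12 and ESAM, chosen by their RPM levels in the same NPM KD against shSc contrast that is described here, and the other 7 belong to the same adhesion families. The differences between the groups for SELPLG, CDH12 and ESAM are therefore given as descriptions without a test.

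NPM KD cells carried shNPM300, a lentiviral shRNA against NPM1 in pLKO.1-puro, and shSc cells carried a scrambled shRNA in the same vector. Both were grown in puromycin and are called clones in the study's methods, and a single shRNA against NPM1 was sequenced, so that differences between clones and the loss of NPM cannot be told apart. Each group has 3 libraries of AmpliSeq, in which 1 amplicon per gene is amplified from cDNA and its reads are counted. The values are RPM (reads of a gene, scaled so that every library has the same total), which were not scaled by gene length and depend on each amplicon's priming, so levels are compared between libraries and not between genes. The study retained the 3 NPM KD libraries and shSc replicates 1 and 2 and left out shSc replicate 3, and the fold changes below follow that choice, with the value in shSc replicate 3 given beside them. That these libraries came from separate cultures is not stated, so errors and p-values measure the spread between libraries, which may be technical. In bulk RNA, fewer cells that express a gene and less RNA per cell cannot be told apart.

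Cells bind each other through a few families of surface proteins. SELPLG encodes PSGL-1, a mucin of leukocytes that binds P-selectin on platelets and endothelium and lets cells roll along the vessel wall, and it does so only once its sugars and tyrosines have been modified by glycosyltransferases and tyrosine sulfotransferases. ICAM1 and ICAM3 are immunoglobulin-like ligands of the leukocyte integrins, and PECAM1 is a related protein of endothelium, platelets and leukocytes. Cadherins are calcium-dependent proteins that bind their like on the neighboring cell and are tied to actin through catenins. CDH1 is the cadherin of epithelia, CDH2 the one of neural and mesenchymal cells and CDH12 a brain cadherin. ESAM and F11R are related immunoglobulin-like proteins of cell junctions and platelets, and EPCAM is an adhesion protein of epithelia.

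The libraries hold 8842344 to 18981902 reads, and a count of 0 allows up to 0.158 to 0.339 RPM (3 reads), for counting error only. NPM1, the targeted gene, had 1302, 1168 and 655 RPM in NPM KD, against 3856, 2968 and 3146 RPM in shSc replicates 1 to 3, with no overlap between the groups. K562 and erythroid genes (GATA1, TAL1, HBG1 and 5 others) were present in every library, with a summed level of 7273 to 14843 RPM in NPM KD and 8769 and 14255 RPM in the retained shSc libraries. In shSc replicate 3, 1561 genes (7.5% of all) had at least 10 RPM and 10 times the highest value of the other 5 libraries, where they stayed under 3 RPM. Its correlation with any other library across genes was at most 0.879, and that of the other pairs at least 0.922. PECAM1 is the member this touches. The genes CDH5, CLDN5, ROBO4, EMCN and ERG, which mark endothelium, had no read in any of the 5 retained libraries, nor did KRT5, KRT7, CDH3 and GRHL2, which mark epithelium. Other markers of these lists were read there, EGFL7 of endothelium and KRT19, PRSS8 and ELF3 of epithelium, with KRT19 at 114.5 to 343.9 RPM in the retained libraries and PRSS8 at 2.56 to 11.7 RPM in NPM KD and 36.9 and 23.4 RPM in shSc.

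Of the 10 genes, 6 reached 1 RPM in 2 or more of the retained libraries and entered the fit of all 11554 such genes (limma on log2(RPM + 0.5)). SELPLG, ICAM1, EPCAM and F11R reached 1 RPM in all 5. CDH12 and ESAM reached it in the 3 NPM KD libraries alone, so they passed this filter through the group in which they were high, and their presence among the tested genes fixes the direction. ICAM3, PECAM1, CDH1 and CDH2 stayed below the limit. PECAM1 was the nearest to it, with 1 library over 1 RPM.

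Of the tested members taken by family, ICAM1, EPCAM and F11R, none passed an adjusted p of 0.05 with limma. Of all tested genes 0.13% did (0.0692% higher and 0.0606% lower in NPM KD). Nor did they pass on the recovered reads with edgeR, where 0.0952% did, or with DESeq2, where 1.64% did. SELPLG, CDH12 and ESAM did not pass with limma or edgeR, and DESeq2 called SELPLG and CDH12. SELPLG was lower and CDH12 and ESAM were higher in NPM KD with no overlap between the groups. Over the 5 libraries 22.8% of all tested genes had no overlap (12.3% higher and 10.4% lower), and over all 6 it was 13.9% (9.55% higher and 4.35% lower). The log2 fold change was 1 or more in size for SELPLG, CDH12, ESAM and ICAM1 (5.17% of all tested genes) and 2 or more for SELPLG and CDH12 (0.987%). For SELPLG, CDH12 and ESAM this contrast was the reason for the choice, and nothing is read from these counts or from their calls.

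Positions on GRCh37, the build of the deposited files, were found for 9 of the genes in GENCODE release 44, each on a different chromosome but for ICAM1 and ICAM3. SELPLG lies on chromosome 12 from 109015671 to 109027670 on the minus strand, with 2 exons in its main transcript. CDH12 spans 1102672 bases of chromosome 5, from 21750782 to 22853453 on the minus strand, in 15 exons. ESAM lies on chromosome 11 from 124622479 to 124632186, also on the minus strand, with 7 exons. ICAM1 (10381769 to 10397291, plus strand) and ICAM3 (10444452 to 10450337, minus strand) share chromosome 19. The place of each amplicon within its gene is not given in the sources used here.

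Start regions of 4 of the 10 genes (ICAM1, ICAM3, CDH12 and CDH2) were in the RefSeq table of GRCh38.p14, each from 250 bases before a transcription start to 50 after it. The regions of CDH12, the cadherin gene that was higher in NPM KD, and of ICAM1, whose level differed most between libraries of a single group among the tested members, are printed 5′ to 3′. Capitals mark matches, on either strand, to TATAAA (the TATA box), CCAAT (the CCAAT box), GGGCGG (the GC box), TGATAA (the GATA motif), CACCTG (an E-box), CCGGAAG (the ETS motif) and GGAAATTCC (a κB-like motif). None of these matches overlaps another.
CDH12, the outermost of its 3 starts in the table, chr5:22853295-22853594, minus strand: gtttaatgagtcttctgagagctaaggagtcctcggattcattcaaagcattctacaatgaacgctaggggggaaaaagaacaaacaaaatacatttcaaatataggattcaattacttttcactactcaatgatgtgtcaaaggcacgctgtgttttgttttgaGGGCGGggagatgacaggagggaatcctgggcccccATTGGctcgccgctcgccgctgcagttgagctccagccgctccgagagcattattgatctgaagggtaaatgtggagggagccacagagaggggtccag
ICAM1, chr19:10270870-10271169, plus strand: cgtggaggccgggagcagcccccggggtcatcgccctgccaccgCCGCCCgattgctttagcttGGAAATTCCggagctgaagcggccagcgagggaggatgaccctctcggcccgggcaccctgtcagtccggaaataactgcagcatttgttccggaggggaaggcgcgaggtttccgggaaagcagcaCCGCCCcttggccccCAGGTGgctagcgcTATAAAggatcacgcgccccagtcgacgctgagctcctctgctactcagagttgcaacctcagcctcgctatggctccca
The CDH12 region held 1 GGGCGG and 1 CCAAT match, and 45% and 34.6% of the 35116 regions of this length in the table hold these letters. The ICAM1 region held 1 TATAAA, 2 GGGCGG, 1 CACCTG and 1 GGAAATTCC match. TATAAA was found in 11.5% of all such regions, CACCTG in 20.6% and GGAAATTCC in 0.461%. A match is a stretch of letters and was not tested as a binding site. The CDH12 region was 48.3% GC with 10 CpG, and the ICAM1 region 64.7% GC with 24 CpG, where the median of all regions was 58.7% GC and 14 CpG.

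**Figure D1:**
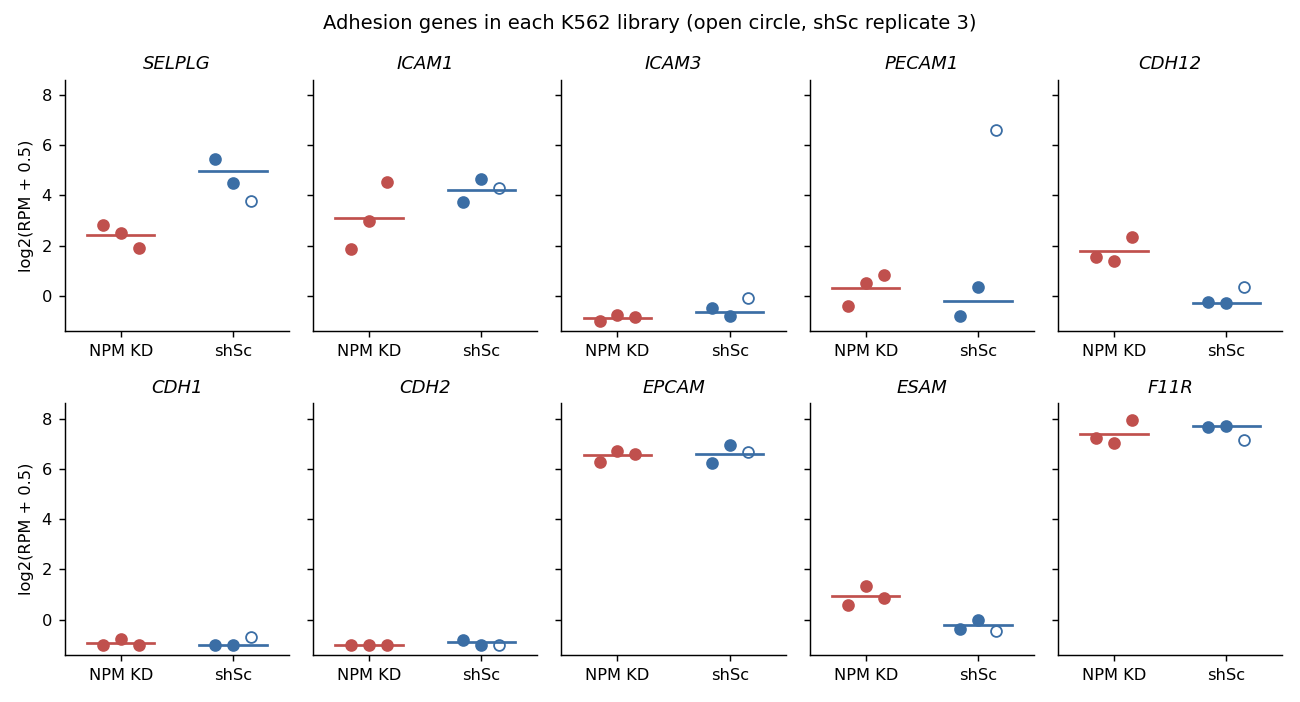
Each panel plots 1 of the 10 genes as log2(RPM + 0.5), with a point for every library (NPM KD on the left, shSc on the right) and a bar at the mean of the retained libraries. The open circle is shSc replicate 3, which is outside the means. SELPLG is lower and CDH12 and ESAM are higher in all 3 NPM KD libraries, CDH1, CDH2 and ICAM3 lie at the bottom of the scale, and PECAM1 stands out in shSc replicate 3 alone (95.8 RPM).

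SELPLG had the largest difference of the members on the log2(RPM + 0.5) scale, whereas CDH12 had it as a ratio of means and with edgeR and DESeq2. It had 6.564, 5.202 and 3.266 RPM in NPM KD replicates 1 to 3, against 42.72 and 22.25 RPM in shSc replicates 1 and 2. Every NPM KD library was below every shSc library, also with shSc replicate 3 (13.2 RPM). In reads these were 78, 61 and 62 in NPM KD, against 606, 279 and 117 in shSc replicates 1 to 3. The counting intervals (95%, exact Poisson) ran up to 8.19 RPM at most in NPM KD and down to 10.9 RPM at least in shSc, and did not meet. The means were 5.01 ± 1.66 RPM over NPM KD, against 32.5 ± 14.5 RPM over shSc (SD, n = 3 and 2), and the log2 fold change was -2.56 (standard error 0.42). In size it ranked 49 among the 11554 tested genes. As SELPLG was chosen by this contrast, nothing is read from the rank or from the gap between the intervals. The shSc libraries differed among themselves by more than counting error, so the size of the difference depends on which of them is used: -3.02 without shSc replicate 2, -2.09 without shSc replicate 1 and -2.16 over all 6 libraries.

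PSGL-1 binds selectins only after modification, and genes of enzymes that modify selectin ligands were followed as a list. The list is broad and also holds FUT8, which acts on N-glycans. FUT7, FUT3 and CHST2 of this list were not found among the genes measured, so the list does not cover the whole pathway. None of the 10 tested modifying enzyme genes passed an adjusted p of 0.05 from limma, against 0.13% of all tested genes, and their median log2 fold change was 0.13, against 0.01 over all tested genes. TPST2, which sulfates tyrosines, had 62.0, 68.2 and 66.0 RPM in NPM KD, against 56.2 and 70.8 RPM in shSc (43.2 RPM in shSc replicate 3), and the groups overlapped. FUT4, a fucosyltransferase of the sialyl Lewis x pathway, had 34.2, 26.9 and 20.0 RPM in NPM KD, against 39.1 and 25.3 RPM in shSc, which overlapped too, and stood at 94.1 RPM in shSc replicate 3. GCNT1, which builds the core 2 branch of O-glycans, was low and overlapping, with 0.84, 2.05 and 2.63 RPM in NPM KD and 0.564 and 1.755 RPM in shSc. TPST1, the other tyrosine sulfotransferase, had 0.337, 0.341 and 0.105 RPM in NPM KD and 0.564 and 0.399 RPM in shSc, below the limit for testing.

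Other enzyme genes had no overlap between the groups and did not pass the test. C1GALT1, the core 1 synthase, had 67.7, 77.9 and 63.9 RPM in NPM KD, against 44.2 and 52.2 RPM in shSc and 41.1 RPM in shSc replicate 3 (log2 fold change 0.53, standard error 0.24, adjusted p = 0.733 from limma). C1GALT1C1, its chaperone COSMC, had 23.7, 25.7 and 17.3 RPM in NPM KD, against 12.1, 11.5 and 15.2 RPM in shSc replicates 1 to 3 (log2 fold change 0.87, adjusted p = 0.581 from limma). FUT8, which adds core fucose to N-glycans, averaged 17.4 ± 6.26 RPM over NPM KD, against 8.77 ± 1.24 RPM over shSc (SD, n = 3 and 2). ST3GAL1, a sialyltransferase that caps core 1, averaged 2.73 ± 0.89 RPM over NPM KD, against 5.44 ± 2.28 RPM over shSc (SD, n = 3 and 2). B4GALT1, a galactosyltransferase, averaged 58.0 ± 4.21 RPM over NPM KD, against 49.96 ± 2.31 RPM over shSc (SD, n = 3 and 2), and was named after its values were seen. C1GALT1, C1GALT1C1, FUT8 and B4GALT1 were higher and ST3GAL1 was lower in NPM KD without overlap, 5 of the 10 tested enzyme genes, beside 22.8% of all tested genes over the 5 libraries. SELE and SELP, the selectins of endothelium and platelets, were at or near 0. SELE had no read in any library and SELP had 0.948 RPM in NPM KD replicate 3 and at most 0.113 RPM elsewhere. Among other selectin ligands GLG1, which encodes ESL-1, averaged 82.1 ± 3.96 RPM over NPM KD, against 74.3 ± 26.8 RPM over shSc (SD, n = 3 and 2). CD44 was under 0.5 RPM in every library, and SPN (CD43), another leukocyte mucin, at 0.263 to 1.194 RPM in NPM KD and 1.41 and 1.196 RPM in shSc.

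**Figure D2:**
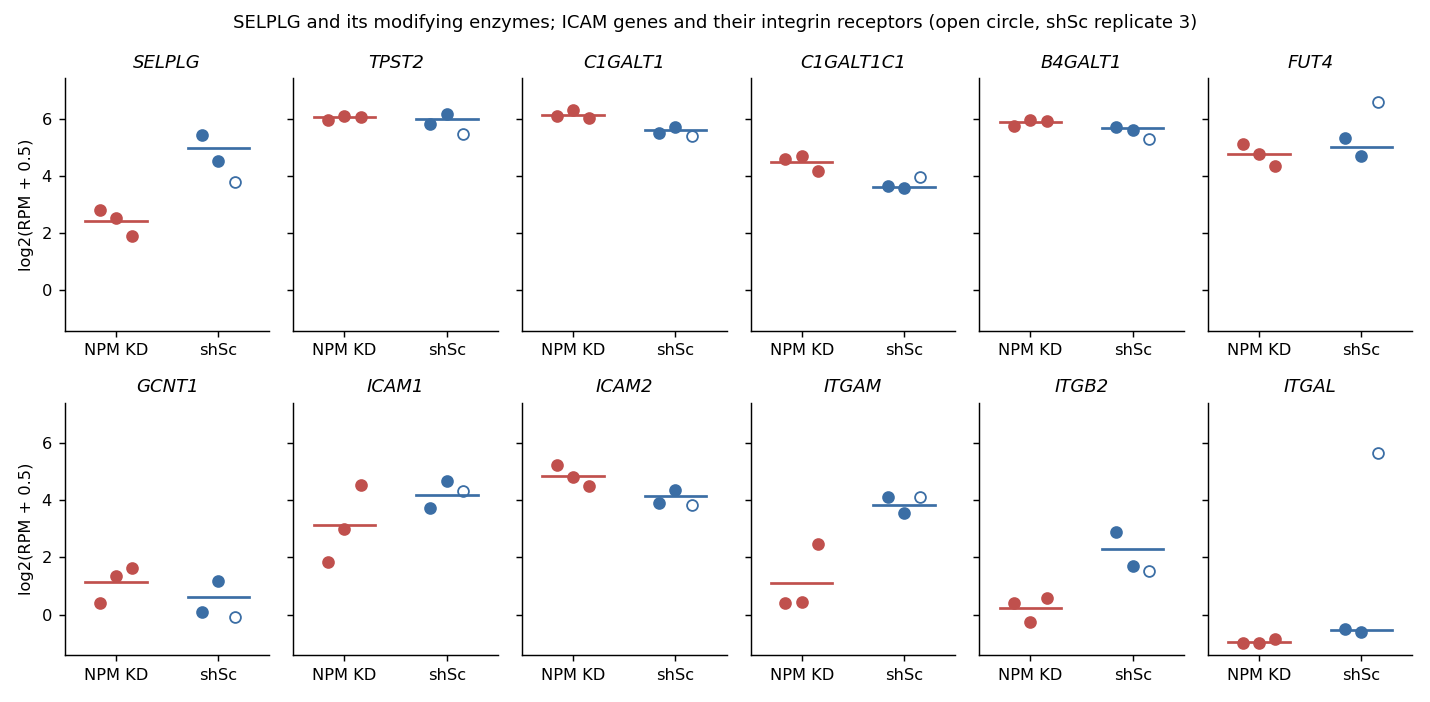
Levels as log2(RPM + 0.5) of SELPLG, its modifying enzymes, ICAM1 and ICAM2, and the integrin receptors of ICAM proteins, with a point for each library (NPM KD on the left, shSc on the right, shSc replicate 3 open) and a bar at the mean of the retained libraries. The enzymes TPST2, FUT4 and GCNT1 overlap between the groups where SELPLG does not, C1GALT1, C1GALT1C1 and B4GALT1 lie above shSc in all NPM KD libraries, and ITGAM and ITGB2 lie below it.

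ICAM1 varied within NPM KD as much as between the groups. It had 3.11, 7.42 and 22.4 RPM in NPM KD replicates 1 to 3, against 12.8 and 24.9 RPM in shSc replicates 1 and 2 and 19.3 RPM in shSc replicate 3. NPM KD replicate 3 lay inside the shSc range and the other 2 below it. The log2 fold change was -1.08 with a standard error of 0.72, and 97.5% of the tested genes had a smaller residual SD. Without NPM KD replicate 3 it was -1.78, and without NPM KD replicate 1 it was -0.45. With the replicate number as a block it was also -1.78 (adjusted p = 8.86e-05 from limma). In that fit NPM KD replicate 3 has no retained shSc library of its number and adds nothing to the difference. The block fit thus rests on replicates 1 and 2 of each group and has little left to measure spread. Nothing is read from its p. The summed level of the 10 epithelial markers, most of it KRT19, was highest in NPM KD replicate 3 (162, 118 and 367 RPM in NPM KD, against 258 and 290 RPM in shSc), as within NPM KD were those of the erythroid (14843 RPM, against 8669 and 7273 RPM in replicates 1 and 2), endothelial, fibroblast, and T and NK cell lists. Their part in the ICAM1 values was not tested. ICAM3, an ICAM of resting leukocytes, was at the limit of detection, with 0, 1 and 1 reads in NPM KD and 3, 1 and 4 reads in shSc, and a difference was not detectable at this depth.

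Other ICAM genes were expressed and none passed the test. ICAM2, an ICAM of endothelium and blood cells, had 36.7, 27.9 and 22.0 RPM in NPM KD, against 14.3, 20.2 and 13.7 RPM in shSc replicates 1 to 3 (log2 fold change 0.72, standard error 0.33, adjusted p = 0.738 from limma), with no overlap. ICAM4, the Landsteiner-Wiener antigen of red cells, averaged 61.6 ± 7.70 RPM over NPM KD, against 57.2 ± 24.4 RPM over shSc (SD, n = 3 and 2), and ICAM5 averaged 51.2 ± 23.6 RPM over NPM KD, against 62.7 ± 1.71 RPM over shSc (SD, n = 3 and 2). VCAM1, an endothelial ligand of another integrin, had no read in any library.

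Of the integrin chains that bind ICAM1, ITGAM and ITGB2 had lower values in every NPM KD library and ITGAX overlapped. ITGAM, the αM chain, had 0.84, 0.85 and 5.06 RPM in NPM KD, against 16.6, 11.3 and 16.9 RPM in shSc replicates 1 to 3 (log2 fold change -2.72, standard error 0.65, adjusted p = 0.265 from limma). ITGB2, the β2 chain, had 0.84, 0.34 and 1.00 RPM in NPM KD, against 6.84, 2.79 and 2.38 RPM in shSc replicates 1 to 3 (log2 fold change -2.04, standard error 0.50, adjusted p = 0.268 from limma). Neither passed with limma, and both passed with DESeq2 on the recovered reads. Within NPM KD both reached 1 RPM in replicate 3 alone, so they entered the fit through shSc, the group in which they were high. ITGAL, which forms LFA-1 with ITGB2, had 0, 0 and 0.053 RPM in NPM KD and 0.211 and 0.16 RPM in shSc, and 49.1 RPM in shSc replicate 3. ITGAX, the αX chain, had 0.168, 0.256 and 1.528 RPM in NPM KD, against 1.762 and 0.319 RPM in shSc replicates 1 and 2, and 17.2 RPM in shSc replicate 3. The summed level of 10 myeloid markers, in which neither SELPLG nor the integrins are counted, was lower in NPM KD too. It was 143, 160 and 128 RPM in NPM KD, against 301, 303 and 328 RPM in shSc replicates 1 to 3. The sum of shSc replicate 3 includes CD14 at 53.0 RPM and CSF1R at 31.4 RPM. In the retained libraries these had at most 0.896 and 0.084 RPM. The markers did not all go this way. SPI1, TYROBP and AIF1 were lower without overlap, also with shSc replicate 3, and CSF3R was so over the retained libraries alone. LYZ and CD33 overlapped. CD14 (0.505, 0.171 and 0.896 RPM in NPM KD, against 0.141 and 0.08 RPM in the retained shSc libraries) and FCER1G had higher means in NPM KD. MPO, a defining gene of granulocytes, was at most 0.141 RPM, and 3 of the 10 stayed under 1 RPM in the 5 retained libraries. The part of these markers in the SELPLG and integrin values was not tested.

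PECAM1 had 0.252, 0.938 and 1.26 RPM in NPM KD, against 0.07 and 0.798 RPM in shSc replicates 1 and 2. The groups overlapped. In shSc replicate 3 it had 95.8 RPM (847 reads, 95% exact Poisson interval 89.45 to 102.5 RPM), while the highest count elsewhere was 24 reads. The log2 fold change had opposite signs with and without that library, 0.53 over the 5 retained libraries when no filter was applied and -1.74 over all 6. CD99, which acts beside PECAM1 when leukocytes cross endothelium, averaged 121.6 ± 25.7 RPM over NPM KD, against 152 ± 13.3 RPM over shSc (SD, n = 3 and 2), with 102.2 RPM in shSc replicate 3.

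CDH12 had the largest difference of the 3 cadherin genes tested. It was chosen by this contrast and passed the filter through NPM KD alone, so nothing is read from that place. It had 2.44, 2.13 and 4.64 RPM in NPM KD, against 0.352 and 0.319 RPM in shSc replicates 1 and 2 and 0.792 RPM in shSc replicate 3. All 3 NPM KD libraries were above all 3 shSc libraries. The counts behind these values were low, with 29, 25 and 88 reads in NPM KD and 5, 4 and 7 reads in shSc. The counting intervals of NPM KD replicates 1 and 2 began at 1.63 and 1.38 RPM, and those of the retained shSc libraries ended at 0.823 and 0.817 RPM. That of shSc replicate 3 reached 1.63 RPM. The means were 3.07 ± 1.37 RPM over NPM KD, against 0.336 ± 0.023 RPM over shSc (SD, n = 3 and 2), a ratio of 9.15. The log2 fold change was 2.03 (standard error 0.44) on the log2(RPM + 0.5) scale, which understates changes of low genes, and 3.18 from DESeq2 on the recovered reads.

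Most other cadherins were at or near 0. CDH1 had 1 read in NPM KD (replicate 2) and 1 in shSc (replicate 3), and CDH2 had 1 read in shSc replicate 1 and none elsewhere, both under the 3 reads that a count of 0 allows in each library. Of the 23 cadherin genes found in the files, 11 had no read in any of the 6 libraries and 3 entered the fit, CDH12, CDH18 and CDH24. CDH18, a cadherin of the same type as CDH12, had 0.421, 0.171 and 3.003 RPM in NPM KD, against 1.41 and 0.957 RPM in shSc, and was highest in NPM KD replicate 3, as CDH12 was. CDH24, another of the type, had 7.15, 6.57 and 7.69 RPM in NPM KD, against 8.67 and 8.37 RPM in shSc, with no overlap, a log2 fold change of -0.24 (adjusted p = 0.922 from limma), and 79.7 RPM in shSc replicate 3.

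Of 15 catenin and linker genes, which tie cadherins to the cytoskeleton, 11 were tested and none passed (median log2 fold change -0.04). CTNNB1, β-catenin, which also acts in Wnt signaling, had 269, 340 and 224 RPM in NPM KD, against 126, 230 and 244 RPM in shSc replicates 1 to 3, and the groups overlapped. JUP (plakoglobin) averaged 276 ± 57.6 RPM over NPM KD, against 287 ± 86.7 RPM over shSc (SD, n = 3 and 2), and CTNND1 (p120 catenin) averaged 36.3 ± 8.47 RPM over NPM KD, against 27.2 ± 13.7 RPM over shSc (SD, n = 3 and 2). ARVCF, a p120 relative, averaged 25.4 ± 8.69 RPM over NPM KD, against 40.2 ± 6.37 RPM over shSc (SD, n = 3 and 2), and PKP3, a plakophilin, averaged 41.6 ± 10.6 RPM over NPM KD, against 60.3 ± 10.6 RPM over shSc (SD, n = 3 and 2). Their groups did not overlap in the retained libraries, and ARVCF did overlap with shSc replicate 3 (25.4 RPM). PKP2, also a plakophilin, was the one tested linker gene without overlap in the other direction and averaged 17.4 ± 1.04 RPM over NPM KD, against 14.3 ± 2.35 RPM over shSc (SD, n = 3 and 2). Of the transcription factors that repress CDH1 in epithelial cells, ZEB2 averaged 53.1 ± 8.54 RPM over NPM KD, against 52.5 ± 7.91 RPM over shSc (SD, n = 3 and 2), and SNAI1 averaged 28.0 ± 8.47 RPM over NPM KD, against 31.3 ± 8.596 RPM over shSc (SD, n = 3 and 2). ZEB1 was the remaining member of this list in the fit, and none of the 3 passed.

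EPCAM had 893 to 1835 reads in every library and its groups overlapped. It had 77.7, 103.4 and 96.7 RPM in NPM KD, against 74.2 and 121.7 RPM in shSc replicates 1 and 2 and 101.0 RPM in shSc replicate 3. The log2 fold change was -0.05 (standard error 0.29), and its sign depended on the shSc library used, -0.40 without shSc replicate 1 and 0.31 without shSc replicate 2. Of the 10 epithelial markers, 7 stayed under 1 RPM in the 5 retained libraries, with 4 of them at 0. KRT19 (114.5 to 343.9 RPM) and PRSS8 were above 1 RPM in all 5, and ELF3 in some. CLDN7, a claudin that binds EPCAM, had 9.43, 6.57 and 8.48 RPM in NPM KD, against 13.5 and 11.3 RPM in shSc, with no overlap (log2 fold change -0.58, adjusted p = 0.804 from limma), and 48.5 RPM in shSc replicate 3.

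ESAM, named for its place at endothelial junctions and also present on platelets, was higher in NPM KD at a very low level. It had 1.01, 2.05 and 1.32 RPM in NPM KD, against 0.282 and 0.479 RPM in shSc replicates 1 and 2 and 0.226 RPM in shSc replicate 3, with no overlap. The counts were 12, 24 and 25 reads in NPM KD, against 4, 6 and 2 reads in shSc replicates 1 to 3. The interval of NPM KD replicate 1 (0.522 to 1.76 RPM) overlapped those of shSc, such as 0.176 to 1.04 RPM in shSc replicate 2. That of NPM KD replicate 3 (0.852 to 1.94 RPM) overlapped the interval of shSc replicate 2 too. The means were 1.46 ± 0.53 RPM over NPM KD, against 0.381 ± 0.139 RPM over shSc (SD, n = 3 and 2), and the log2 fold change was 1.13 (standard error 0.43), or 1.94 from DESeq2 on the recovered reads. The endothelial markers CDH5, CLDN5, ROBO4, EMCN and ERG had no read in the retained libraries, KDR and TEK had at most 0.171 RPM, and EGFL7 was the one above 1 RPM, with 70.2, 50.7 and 108.4 RPM in NPM KD and 63.9 and 99.1 RPM in shSc.

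F11R, the junctional adhesion molecule A of platelets and epithelia, had 1239 to 4704 reads a library and did not separate the groups. It had 147, 131 and 248 RPM in NPM KD, against 203 and 209 RPM in shSc replicates 1 and 2 and 140 RPM in shSc replicate 3. NPM KD replicate 3 was the highest of all libraries, replicates 1 and 2 were below the retained shSc libraries, and shSc replicate 3 lay among the low values. The log2 fold change was -0.28 (standard error 0.31). JAM2 had no read in the retained libraries and JAM3 had 0.369 to 1.364 RPM in NPM KD and 0.423 and 0.16 RPM in shSc. None of 13 tested genes of the junctional adhesion and tight junction list passed (median log2 fold change 0.27). TJP1 (ZO-1), which binds F11R inside the cell, averaged 19.3 ± 1.497 RPM over NPM KD, against 12.5 ± 7.43 RPM over shSc (SD, n = 3 and 2), and overlapped. PARD3, a polarity protein that also binds F11R, had 8.84, 9.64 and 11.3 RPM in NPM KD, against 6.70 and 7.34 RPM in shSc without overlap, and 12.0 RPM in shSc replicate 3. CLDN15, a pore-forming claudin, had 14.1, 11.6 and 12.2 RPM in NPM KD, against 9.52, 8.53 and 5.43 RPM in shSc replicates 1 to 3, with no overlap (log2 fold change 0.46, adjusted p = 0.826 from limma). OCLN, occludin, had a single read, in NPM KD replicate 3.

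Over the 9 adhesion lists, 65 of 137 genes found were tested and none rose or fell at an adjusted p of 0.05 from limma or from edgeR on the recovered reads. At an unadjusted p under 0.05 there were 9 with limma and 9 with edgeR, where with limma 7.14% of all tested genes had one, and 3 of the 9 were SELPLG, CDH12 and ESAM themselves. For those 3 this contrast was the reason for the choice, and nothing is read from their p. With the 10 members left out, 59 genes remained, of which 6 had an unadjusted p under 0.05 with limma and DESeq2 called 3, ITGAM and ITGB2 as lower and CD226 as higher, where it called 1.64% of all tested genes. CD226 reached 1 RPM in the NPM KD libraries alone and so passed the filter through the group in which it was high. ITGAM and ITGB2 likewise passed it through shSc, where they were high, as within NPM KD they reached 1 RPM in replicate 3 alone. The filter thus favored the direction of each of these calls, and nothing is read from them. The 59 genes had a median log2 fold change of -0.04 and no overlap between the groups for 32.2% (9 higher and 10 lower), beside 22.8% of all tested genes (12.3% higher and 10.4% lower). Of these 59, CD226 had the highest log2 fold change, and it was named after its values were seen. CD226, a receptor of T and NK cells, platelets and megakaryocytes that binds PVR and NECTIN2, had 3.28, 3.75 and 6.48 RPM in NPM KD, against 0.141, 0.718 and 0.905 RPM in shSc replicates 1 to 3 (log2 fold change 2.45, adjusted p = 0.145 from limma). PVR, its ligand, had 8.92, 6.57 and 10.1 RPM in NPM KD, against 18.8, 17.6 and 12.4 RPM in shSc replicates 1 to 3 (log2 fold change -1.07, adjusted p = 0.471 from limma). NECTIN2, listed under its older name PVRL2, averaged 51.7 ± 8.99 RPM over NPM KD, against 41.6 ± 7.91 RPM over shSc (SD, n = 3 and 2). BSG (basigin), the list gene with the highest mean RPM, averaged 490 ± 77.1 RPM over NPM KD, against 752 ± 64.6 RPM over shSc (SD, n = 3 and 2), and had 527 RPM in shSc replicate 3, within the NPM KD range (adjusted p = 0.639 from limma).

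**Figure D3:**
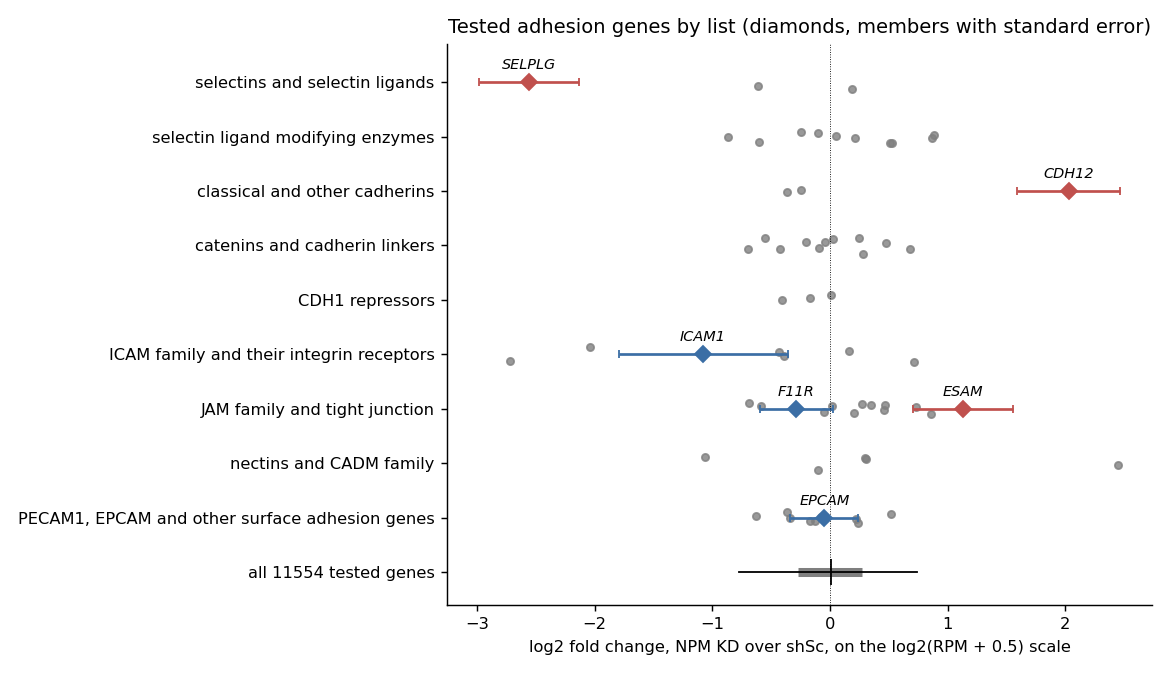
Log2 fold change of NPM KD over shSc for every tested gene of the 9 adhesion lists (grey points), with the members as diamonds and their standard error (red for SELPLG, CDH12 and ESAM, blue for the members taken by family). The bottom line spans the 5th to 95th percentile of all 11554 tested genes, from -0.78 to 0.74, with the thick part from the 25th to the 75th, and SELPLG, CDH12, ESAM and ICAM1 lie outside it.

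The genes whose levels followed SELPLG, CDH12 and ESAM most closely were found by Pearson correlation of log2(RPM + 0.5) over the 5 retained libraries, among tested genes with a mean of at least 5 RPM, as a description. Those for SELPLG were STON2, GBGT1 and ABCD4 (r of 0.998, 0.996 and 0.996). GBGT1, a glycosyltransferase of the Forssman glycolipid, had 7.24, 6.91 and 5.64 RPM in NPM KD, against 24.95 and 17.23 RPM in shSc and 13.0 RPM in shSc replicate 3, between its values in the groups, as SELPLG was. ABCD4, a lysosomal transporter of the cobalamin pathway, had its highest value in shSc replicate 3 (24.99 RPM, against 14.6 to 15.6 RPM in NPM KD and 18.6 and 17.2 RPM in the other shSc libraries), where SELPLG was lowest of the shSc libraries. STON2, an endocytic adaptor, covered a narrow range, 140 to 149 RPM in NPM KD and 186 and 175 RPM in shSc. Those for CDH12 were OR2AT4, NAV1 and KIAA1704 (r of 0.999, 0.993 and 0.992), with NAV1, a neuron navigator protein that binds microtubules, at 47.2, 41.4 and 60.3 RPM in NPM KD, against 20.02 and 17.15 RPM in shSc and 14.02 RPM in shSc replicate 3. OR2AT4, an olfactory receptor, had 5.88 to 10.3 RPM in NPM KD and 1.90 and 1.99 RPM in the retained shSc libraries, and 74.4 RPM in shSc replicate 3, apart from CDH12. Those for ESAM were VAPB, CBWD2 and OTUD1 (r of 0.997, 0.995 and 0.995), of which OTUD1, a deubiquitinase, had 7.675 RPM or less in the 5 retained libraries and 77.4 RPM in shSc replicate 3. With so few libraries many genes come close: 70 of 9430 compared exceeded 0.95 for SELPLG, 78 of 9431 for CDH12 and 81 of 9431 for ESAM.

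**Figure D4:**
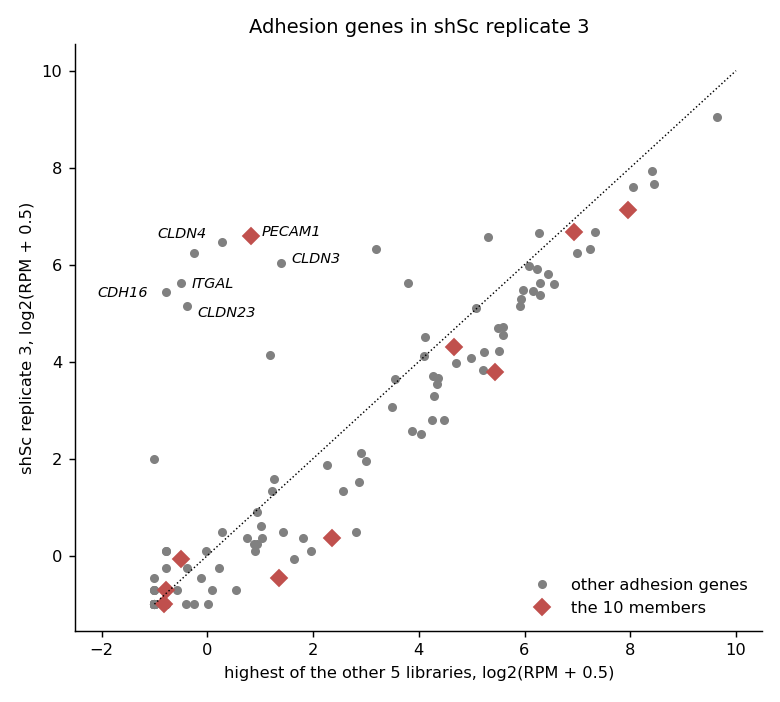
Level of each of the 137 adhesion genes in shSc replicate 3 (vertical axis) against its highest level in the other 5 libraries (horizontal axis), both as log2(RPM + 0.5), with the 10 members as diamonds and a dotted line of equality. The 6 named genes, PECAM1 among them, had 34.7 to 95.8 RPM in shSc replicate 3 and no more than 2.12 RPM elsewhere.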

How the data were processed

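RNA of K562 cells with shNPM300 (NPM KD, 3 libraries) or a scrambled shRNA (shSc, 3 libraries) was measured by Ion AmpliSeq. The authors ran the libraries on the Ion Proton, used Torrent Suite for alignment (hg19) and deposited RPM for each gene as the AmpliSeqRNA plugin gives it. No source used here gives the version or filters of that plugin. The 10 spike-in rows were 0 and were left out. All RPM values (100%) were whole multiples of 1 read within 0.1 read, so reads were recovered. Genes that reached 1 RPM in 2 or more of the retained libraries were tested with limma 3.58.1 (R 4.3.3) after log2(RPM + 0.5), with a trended variance prior and no covariates, p being adjusted by Benjamini-Hochberg with a threshold of 0.05. The procedure was also run on simulated independent libraries of a set spread, where only genes of at least 5 RPM were changed. That run does not cover genes as low as CDH12 and ESAM or the spread of these libraries. No library was a copy of another (chi-square per gene of at least 41.1 for each pair). Alternatives were all 6 libraries, pseudocounts of 0.1 and 1, no filter or one of 5 RPM, TMM, quantile normalization, no trend, a replicate block, edgeR 4.0.16, DESeq2 1.42.0 and each library left out. The members, lists and rules were chosen with earlier results of these data known. Of 142 listed adhesion genes, 137 were found (not CD24, FUT3, FUT7, CHST2 and TJP3). Besides the members and the enzymes, receptors and catenins that act on them, list genes named are those past the threshold, up to 4 a list without overlap and with at least 5 RPM, and the 2 most abundant of each list; others were named after their values were seen, and 3 list genes are counted but not reported here. Coordinates are from GENCODE release 44 on GRCh37, and start regions from RefSeq on GRCh38.p14.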

Additional observations from a re-analysis of the deposited data

Results flagged for a closer look

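Some adhesion genes had reads in shSc replicate 3, the library outside the comparison, that were not seen in the other 5 libraries at more than 2.12 RPM. Among them were PECAM1 (95.8 RPM), CLDN4 (88.2 RPM), CLDN3 (65.0 RPM), ITGAL (49.1 RPM), CDH16 (42.8 RPM) and CLDN23 (34.7 RPM). Such genes were 7 of 137 adhesion genes (5.11%), and 7.5% of all genes in the files had such a value.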

How the results depend on the processing

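No adhesion list gene passed in the comparison as reported, and the count was also 0 with all 6 libraries, other pseudocounts, other filters, TMM, quantile normalization, no trend, edgeR and each library left out (9 genes had an unadjusted p under 0.05 from limma as reported). It was 5 with DESeq2 and 15 with the replicate block, counting SELPLG and CDH12, for which nothing is read from a call because this contrast chose them. The block called ICAM1, and among other list genes named above ARVCF, BSG, C1GALT1C1, CD226, CTNNB1, FUT8, ICAM2, ICAM5, ITGAM, ITGB2 and PVR. It rests on replicates 1 and 2 of each group with little left to measure spread. Nothing is read from its calls, here or over all genes. Over all genes, 15 passed as reported, against 3 over all 6 libraries, 2 with no filter, 7 with a filter of 5 RPM, 26 with quantile normalization, 190 with DESeq2 and 1698 with the replicate block. With a library left out it was 0 to 5, and both fits with a lone shSc library, which is taken to vary as NPM KD does, gave 0 (875 genes had an unadjusted p under 0.05 when shSc replicate 1 was left out and 994 when shSc replicate 2 was). Replicate numbers were not taken as pairs. Deviations of same-numbered libraries correlated at 0.43, 0.31 and 0.04 for numbers 1 to 3, where number 3 involves shSc replicate 3. Those of differently numbered libraries correlated at -0.37 to 0.098, with the lowest values, -0.34 and -0.37, between numbers 1 and 2. Across genes, the NPM KD and shSc libraries of number 1 correlated at 0.953 and those of number 2 at 0.951. The retained shSc libraries correlated at 0.939 with each other, and NPM KD replicates 1 and 2 at 0.972. Libraries numbered 1 and 2 thus shared structure across the groups, and its source was not tested. The fit as reported did not model it. Of the shSc libraries, shSc replicate 2 correlated best with NPM KD replicate 3. Of 94 alternative values for the 6 tested members, 85 moved by less than the residual SD of the gene itself. This measure is wide for a variable gene: for ICAM1 it was 1.16, so values from -1.78 to -0.45 are counted among the 85. The 9 others were CDH12 and ESAM on other scales (1.56 to 3.18 and 1.67 to 1.94) and EPCAM without either shSc library. CDH12 and ESAM rest on 2 to 88 reads a library.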
